A study of Mus musculus with 10 samples.

Results

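The 39 genes described here drive or brake the cell division cycle: 11 act in G1, the phase in which a cell commits to divide, 11 copy DNA or make its building blocks, 12 act in mitosis, and 5 inhibit the kinases that move the cycle forward. They were chosen by gene symbol from a fixed list, and all 39 were found among the 40789 genes of the count table. They were measured by RNA sequencing in microglia, the resident macrophages of the brain, sorted from the cortex of 10 mice. All 10 mice were female CX3CR1+/egfp animals on a C57BL6/J background, aged 2 to 3 months, with a green fluorescent protein in place of one copy of the fractalkine receptor gene. Of these, 5 were injected into the peritoneum with lipopolysaccharide (LPS, a component of the outer membrane of Gram-negative bacteria) at 4 mg/kg, and 5 with saline. Tissue was taken 24 h later, each library came from 1 mouse, and the design asks how microglial RNA differs between the LPS and the saline mice. Cells were collected by high GFP, which is driven by the Cx3cr1 locus, and Cx3cr1 itself was lower in LPS, with 4134 CPM in saline and 1476 CPM in LPS on average (edgeR adjusted p = 0.000819). Mice are numbered 1 to 5 within each group, and the numbers pair no mouse with another.

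A cell enters the cycle when D-type cyclins activate the kinases CDK4 and CDK6, which phosphorylate the retinoblastoma protein RB1 and so release E2F transcription factors. E2F factors switch on genes for the MCM helicase, which unwinds DNA, and for enzymes that make nucleotides. Cyclin A, cyclin B and CDK1 then lead the cell into mitosis. Proteins of the CIP/KIP family (p21, p27) and the INK4 family (p16, p18, p19) bind and inhibit these kinases. Adult microglia are known to divide rarely, and to divide more in some inflamed or regenerating states.

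Libraries held 11577295 to 15274421 counts in saline and 12928007 to 15332121 in LPS. Levels are given as CPM, that is, counts relative to the library's size after TMM factors had adjusted it for composition, as mean ± SD over 5 mice. Differences are log2 fold changes of LPS over saline ± standard error, and a gene is called changed when its edgeR p-value, adjusted over all 13793 genes tested, is below 0.05. The microglial markers P2ry12 and Cx3cr1 were high in every library, and 11 microglial markers summed to between 69086 and 80307 CPM in saline and between 18588 and 40403 CPM in LPS, with 8 of the 11 called lower. Border-associated macrophage markers summed to 616 to 894 CPM in saline and 814 to 2089.7 CPM in LPS, most of it from Stab1 (means 690.1 and 1061 CPM). Of the 7 tested, 5 were called higher, among them Dab2 and Siglec1, while Mrc1 was not called (10.3 and 7.32 CPM). Monocyte markers summed to 14.4 to 22.8 CPM in saline and 78.1 to 219.9 CPM in LPS, with 3 called higher (Ms4a4c, Fn1, F13a1) and 2 lower (Ccr2, Spn); Ms4a4c alone went from 4.19 to 99.4 CPM and Ccr2 from 10.2 to 2.45 CPM. Neutrophil and neutrophil precursor markers, a source of dividing cells to look for in such a sort, summed to at most 1.12 CPM in saline. In LPS they summed to 2.01 to 28.5 CPM. Of these markers, Elane, Mpo and Ctsg were at 0 in all 10 libraries, and Prtn3 was above 0 in saline mouse 2 only (0.0849 CPM). Only Cxcr2 passed the filter, and it was called higher (means 0.112 and 4.82 CPM, log2 fold change 5.29, edgeR adjusted p = 0.000108). It was at 1.34 to 7.99 CPM in the LPS mice and at most at 0.427 CPM in saline. Others were higher in some LPS mice. S100a8 was at 9.08 CPM in LPS mouse 5 and 6.27 CPM in LPS mouse 4, Mmp8 at 7.83 CPM in LPS mouse 5 and Ngp at 5.70 CPM in LPS mouse 4. Whether dividing precursors were among the sorted cells was not tested. Erythroid precursor markers summed to 17.2 to 23.4 CPM in saline and to 4.46 to 10.7 CPM in LPS. Short genes took a larger share of the counts in LPS: the 2640 shortest of 13199 genes with a length held 14.8% ± 2.23 in saline and 23.4% ± 3.57 in LPS (exact two-sided permutation p = 0.00794, n = 5 and 5, the smallest p such groups allow). The part of these differences in the results below was not tested, except that the tests of the 31 genes that passed the filter were also run with the gene-length trend removed. In sorted bulk samples, a change in the share of cells that express a gene and a change in RNA per cell cannot be told apart.

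Of the 39 genes, 31 had enough counts to be tested, and 8 were at or near 0. Among the 31 tested genes, 13 were called higher in LPS and 2 lower, while 16 were not called. Over all genes tested, 22.4% were called higher and 22.5% lower, or 45.0% in either direction. After removal of each library's trend of counts over gene length, 11 of the genes were called higher and 0 lower. Over the 13199 genes tested in that fit, 2655 were called higher and 2430 lower. All LPS mice lay above all saline mice for 6 of the 31 genes and below them for 2, against 14.1% and 15.7% of all genes tested, or 29.8% without overlap either way. The median log2 fold change was 0.55 over the 31 genes and 0.00142 over all genes tested. Of the 31 genes, 23 reached the filter level of about 0.735 CPM in all 10 libraries. Ccnd2, E2f1, Ccnb2 and Aurkb reached it in fewer saline than LPS libraries, so the count of risers includes genes that were tested because of their level in LPS.

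**Figure D1:**
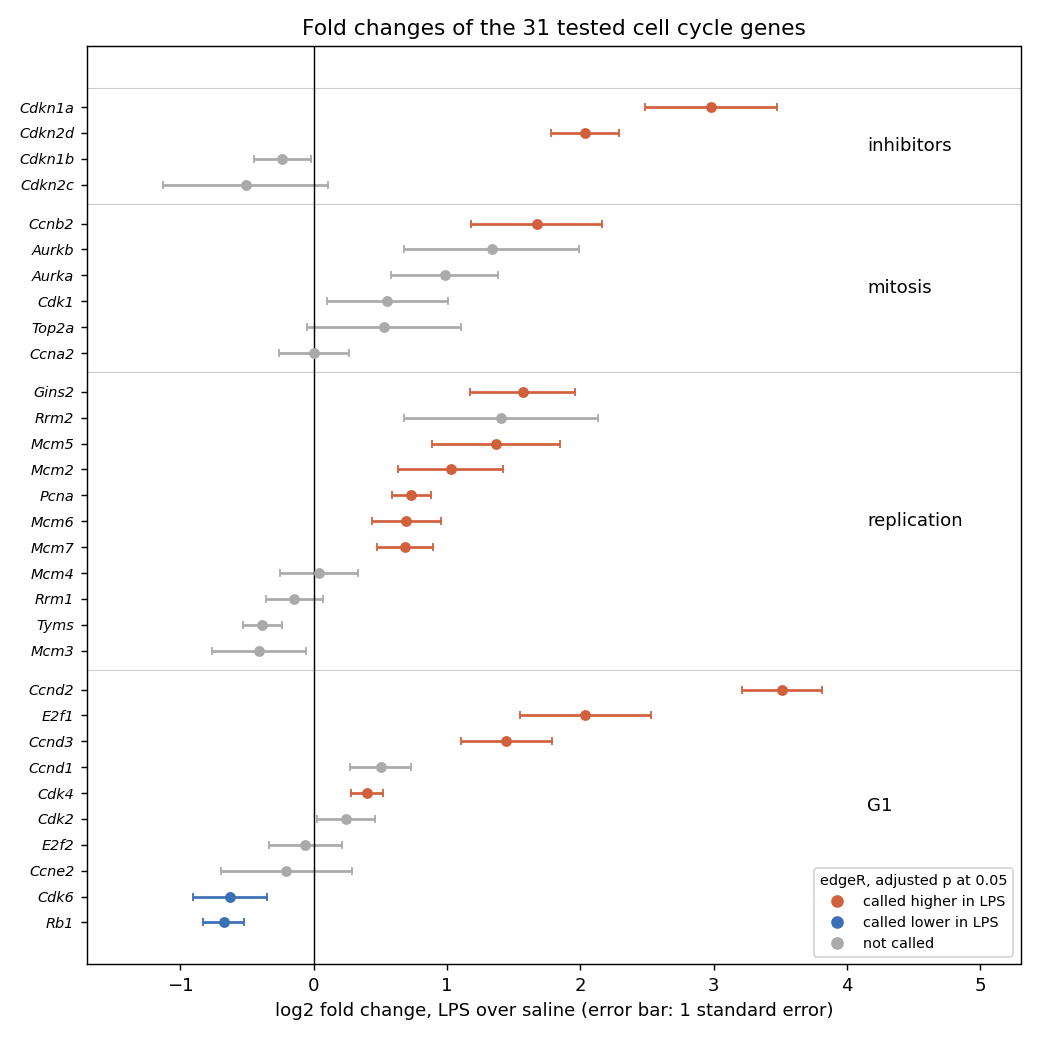
Log2 fold change of LPS over saline (x axis) for each of the 31 tested cell cycle genes (y axis, grouped by role), with bars of 1 standard error over 5 and 5 mice. Orange points are the 13 genes called higher, blue points the 2 called lower and grey points the 16 not called. Ccnd2 (3.51) and Cdkn1a (2.98) lie farthest to the right.

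Of the 5 inhibitors 4 were tested, with a median log2 fold change of 0.90. Cdkn1a and Cdkn2d rose, with every LPS mouse above every saline mouse, and Cdkn1b and Cdkn2c were not called. Cdkn1a (Entrez gene 12575, chromosome 17, 29090979 to 29100722 on GRCm38) encodes p21, a CIP/KIP inhibitor that is a textbook target of p53 and halts the cycle in G1. It was at 6.13, 8.06, 3.88, 3.74 and 4.91 CPM in saline mice 1 to 5, and at 22.1, 27.9, 16.0, 96.7 and 47.3 CPM in LPS mice 1 to 5. The lowest LPS mouse was thus above the highest saline mouse, and LPS mouse 4 stood above its group. The means were 5.34 ± 1.80 and 42.0 ± 32.7 CPM, a log2 fold change of 2.98 ± 0.50 (edgeR adjusted p = 0.000102). Without LPS mouse 4 the log2 fold change was 2.41, and the call was kept in each of the 24 alternative fits.

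Cdkn2d (Entrez gene 12581, chromosome 9, 21288459 to 21291421) encodes p19, an INK4 inhibitor of CDK4 and CDK6. Saline mice 1 to 5 had 19.96, 17.1, 16.6, 15.3 and 18.4 CPM, and LPS mice 1 to 5 had 42.7, 51.6, 64.1, 101 and 98.6 CPM. The saline mice were close to each other, and the LPS mice were spread over a wider range that did not reach down to them. Means of 17.5 ± 1.78 and 71.6 ± 26.8 CPM gave a log2 fold change of 2.04 ± 0.26 (edgeR adjusted p = 1.01e-05). After removal of the gene-length trend, it was 1.61 for Cdkn2d and 2.76 for Cdkn1a, both still called (edgeR adjusted p = 0.000122 and 0.000379).

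Cdkn1b, which encodes p27, the inhibitor that holds many resting cells out of the cycle, lay between 24.6 and 31.6 CPM in saline (median 27.0) and between 16.2 and 36.9 CPM in LPS (median 20.03). LPS mouse 5 was the highest of all 10 mice and LPS mouse 2 the lowest. The log2 fold change was -0.24 ± 0.21 (edgeR adjusted p = 0.353), and without LPS mouse 5 it was -0.45 and called (adjusted p = 0.0369). Cdkn2c, which encodes the INK4 inhibitor p18, was at 8.89, 10.1, 10.9, 6.68 and 10.97 CPM in saline and at 3.85, 0.999, 7.14, 11.3 and 9.94 CPM in LPS. LPS mice 1 and 2 were below all saline mice and LPS mouse 4 was above them (log2 fold change -0.51 ± 0.62, edgeR adjusted p = 0.345). Cdkn2a, the INK4 locus used as a marker of senescent cells, had no count in any saline mouse and 1 count in LPS mouse 3. A total of 0 allows up to 3 counts over the saline group, or 0.0432 CPM, which covers counting error only.

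**Figure D2:**
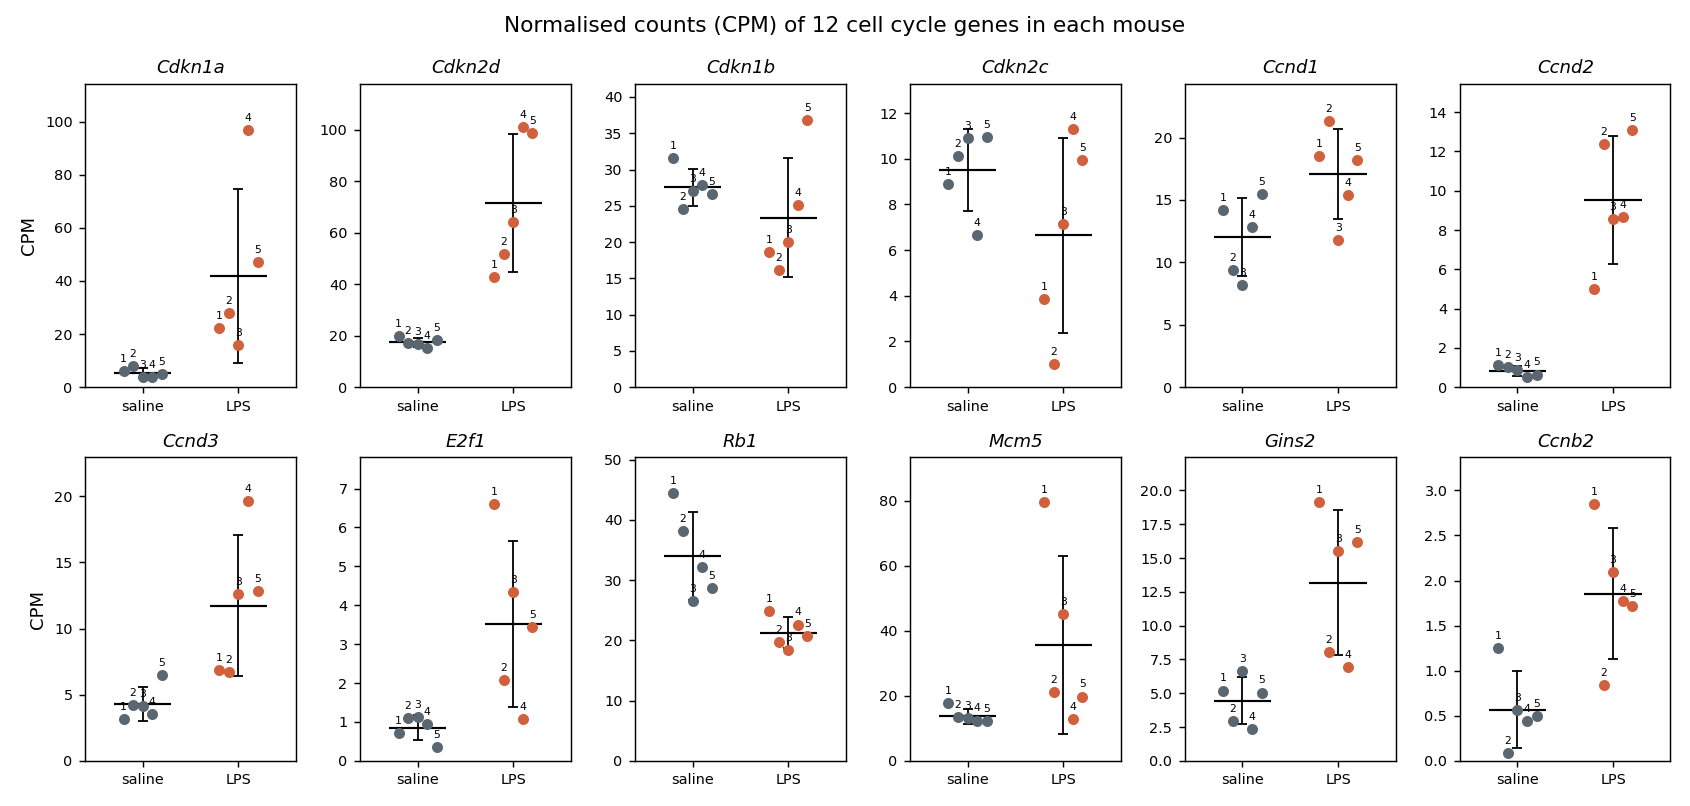
CPM (y axis, from 0) of 12 cell cycle genes in the 5 saline mice (grey) and 5 LPS mice (orange), with the mouse number beside each point and lines for the mean ± SD. Cdkn1a, Cdkn2d, Ccnd2, Ccnd3 and Gins2 show no overlap with LPS above, and Rb1 none with LPS below, while in Mcm5 and E2f1 mouse 4 of the LPS group lies among the saline mice.

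Of the 11 G1 genes, 10 were tested, with 4 called higher and 2 lower, against 22.4% and 22.5% of all genes tested. Their median log2 fold change was 0.32. Among the D-type cyclins, the partners of CDK4 and CDK6, Ccnd2 and Ccnd3 rose. Ccnd2 (Entrez gene 12444, chromosome 6, 127125162 to 127152188) was at 1.12, 1.02, 0.889, 0.499 and 0.641 CPM in saline and at 5.02, 12.4, 8.54, 8.68 and 13.1 CPM in LPS. Each saline mouse was near the filter level, and each LPS mouse was well above it. Means of 0.833 ± 0.259 and 9.54 ± 3.26 CPM gave a log2 fold change of 3.51 ± 0.30 (edgeR adjusted p = 2.54e-06).

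Ccnd3 (Entrez gene 12445, chromosome 17, 47505051 to 47599689) was at 3.16, 4.24, 4.12, 3.56 and 6.48 CPM in saline and at 6.86, 6.68, 12.6, 19.6 and 12.8 CPM in LPS. LPS mice 1 and 2 were only just above saline mouse 5, and LPS mouse 4 was the highest. Its log2 fold change was 1.44 ± 0.34 (edgeR adjusted p = 0.00202). Ccnd3 overlaps Bysl on the opposite strand, which went from 10.1 to 22.5 CPM, and strand use in counting was not given in the sources used here. Reads of the pair cannot be told apart. Ccnd1 was the most abundant D cyclin per length in saline, with 3.06 ± 0.788 RPKM (a deposited value scaled to library size and gene length) against 1.45 ± 0.446 for Ccnd3 and 0.130 ± 0.0387 for Ccnd2. In LPS the order was kept, with 4.46 ± 0.977, 3.99 ± 1.77 and 1.52 ± 0.529 RPKM, and the Ccnd1 and Ccnd3 levels lay within their spread of each other. Ccnd1 counts were 8.16 to 15.5 CPM in saline and 11.8 to 21.4 CPM in LPS, overlapping groups with a log2 fold change of 0.50 ± 0.23 that was not called (edgeR adjusted p = 0.0707). Without saline mouse 5 or without LPS mouse 3, Ccnd1 was called (adjusted p = 0.0462 and 0.0386), as it was after removal of the length trend (0.71, adjusted p = 0.0201), with DESeq2 (0.0435) and among protein-coding genes only (0.0483).

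Differences were smaller for the kinases. Cdk4 was at 84.4, 82.8, 101, 74.4 and 98.0 CPM in saline and at 127, 118, 128, 90.8 and 117 CPM in LPS. LPS mouse 4 lay among the saline mice and the other LPS mice above them. The log2 fold change of 0.40 ± 0.12 was called (edgeR adjusted p = 0.0279). It was lost without saline mouse 1, 2 or 4 or without LPS mouse 1 or 3 (adjusted p between 0.0643 and 0.076), with library size only and with no filter, and after removal of the length trend it was -0.05 (adjusted p = 0.754). Cdk4 also overlaps Tspan31 on the opposite strand, a gene of far higher level that went from 480 to 747 CPM.

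Cdk6 was at 85.6, 84.0, 129.5, 208 and 108 CPM in saline and at 56.9, 107, 78.2, 76.3 and 79.8 CPM in LPS. Saline mouse 4 was the highest and LPS mouse 1 the lowest, and LPS mouse 2 lay within the saline range. Its log2 fold change was -0.63 ± 0.28 (edgeR adjusted p = 0.0445). The call was lost without saline mouse 3 or 4 and without LPS mouse 1, 3, 4 or 5 (adjusted p between 0.0542 and 0.149), with RLE factors, limma-voom, RPKM and the range of mouse numbers as a term, and after removal of the length trend the difference was 0.00 (adjusted p = 0.992). Cdk2, the partner of cyclins E and A, was not called, with 19.7 to 34.002 CPM in saline and 21.7 to 39.7 CPM in LPS (log2 fold change 0.24 ± 0.22, edgeR adjusted p = 0.331).

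Rb1 and E2f1, the brake and the transcription factor it holds, were called in opposite directions. Rb1 (Entrez gene 19645, chromosome 14, 73192858 to 73325951) was at 44.4, 38.1, 26.6, 32.2 and 28.6 CPM in saline and at 24.9, 19.7, 18.4, 22.6 and 20.7 CPM in LPS. Every LPS mouse was below every saline mouse, though LPS mouse 1 came close to saline mouse 3. The log2 fold change was -0.68 ± 0.15 (edgeR adjusted p = 0.00446). It was -0.33 and not called after removal of the length trend (adjusted p = 0.113). Lpar6 and Rcbtb2, which overlap Rb1 on the opposite strand, also had lower means in LPS (1195 to 694 CPM and 295 to 93.5 CPM), so the strand caveat bears on Rb1 too.

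E2f1 (Entrez gene 13555, chromosome 2, 154559400 to 154569892), an activator of replication genes, was at 0.725, 1.1, 1.13, 0.936 and 0.356 CPM in saline. In LPS it was at 6.61, 2.07, 4.35, 1.08 and 3.44 CPM, with only mouse 4 inside the saline range. The log2 fold change was 2.04 ± 0.49 (edgeR adjusted p = 0.00391), called in each of the 22 alternative fits that tested it. E2f2, another activator, was not called: 2.49 to 5.93 CPM in saline and 2.74 to 5.94 CPM in LPS (log2 fold change -0.06 ± 0.27, edgeR adjusted p = 0.876).

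Cyclin E genes, which act with CDK2 at the start of DNA synthesis, were low. Ccne2 was at 0.783 to 1.75 CPM in saline and at 0.235 to 2.68 CPM in LPS, with a log2 fold change of -0.20 ± 0.49 (edgeR adjusted p = 0.766). Ints8, which overlaps Ccne2 on the opposite strand, went from 11.9 to 10.7 CPM, so the strand caveat bears on Ccne2 too. Ccne1 did not pass the filter. It had 4 counts in all over the saline mice and 60 over the LPS mice, of which 41 came from LPS mouse 1, and none in LPS mice 2 and 3. With no filter on low counts its log2 fold change was 3.84 (edgeR adjusted p = 0.00912), a value that rests mainly on 1 mouse.

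All 11 replication genes were tested, and edgeR called 6 higher and 0 lower, against 22.4% and 22.5% of all genes tested. Their median log2 fold change was 0.69. DESeq2 also called 0 lower, against 3156 of all 13793 genes tested. Tyms was the 1 gene lower at an unadjusted edgeR p below 0.05. The risers were Mcm2, Mcm5, Mcm6, Mcm7, Pcna and Gins2. Promoters of this group are shown first, since E2F sites are the textbook link from G1 to these genes. The motif searched was TTTCCCGC, TTTCGCGC, TTTGCCGC or TTTGGCGC on either strand, within 250 bases before to 50 bases after the start site in RefSeq windows of GRCm38.p6. It was found in 4 of the 9 replication genes with a window (44.4%), which were Mcm3, Mcm5, Mcm6 and Mcm7, against 2.6% of 27025 genes. Matches on both strands can overlap. These stretches lie before the start sites of 2 of the called genes, with the matched bases in capitals, at chr8:75109336-75109387 on the plus strand for Mcm5 and chr1:128359725-128359835 on the minus strand for Mcm6, each read 5′ to 3′ along the gene:
Mcm5: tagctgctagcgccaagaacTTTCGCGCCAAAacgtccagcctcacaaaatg
Mcm6: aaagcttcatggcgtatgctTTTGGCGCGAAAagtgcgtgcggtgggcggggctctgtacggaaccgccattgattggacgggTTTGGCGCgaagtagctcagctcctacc
Mcm3 holds such a match and was not called, while Pcna, with a window and no match, rose. A match here is a string of letters, and binding was not measured.

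Of the 6 subunits of the MCM helicase, 4 were called higher and 2 were not called. Mcm5 (Entrez gene 17218, chromosome 8, 75109468 to 75128439) was at 17.9, 13.4, 13.1, 12.4 and 12.2 CPM in saline and at 79.6, 21.0, 45.1, 12.9 and 19.8 CPM in LPS. LPS mice 1 and 3 stood far above the rest, and LPS mouse 4 was within the saline range. The log2 fold change was 1.37 ± 0.48 (edgeR adjusted p = 0.0113), and without LPS mouse 1 it was 0.85 (adjusted p = 0.0317). With limma-voom it was 1.04 and not called (adjusted p = 0.0507). Mcm2 was at 3.69, 4.16, 5.17, 5.24 and 1.92 CPM in saline and at 13.8, 7.37, 10.6, 5.07 and 4.38 CPM in LPS. Again mice 1 and 3 were the highest of the LPS group and mice 4 and 5 lay in the saline range (log2 fold change 1.03 ± 0.40, edgeR adjusted p = 0.027). The Mcm2 call was lost without saline mouse 1 or 5 or without LPS mouse 1 or 3 (adjusted p between 0.0565 and 0.078).

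Mcm7 was at 23.3, 21.5, 20.2, 22.1 and 17.1 CPM in saline and at 46.0, 21.5, 37.7, 35.8 and 26.5 CPM in LPS, with mouse 2 alone inside the saline range. Its log2 fold change was 0.68 ± 0.21 (edgeR adjusted p = 0.0105), called in each of the 24 alternative fits, but Cops6 on the opposite strand went from 96.0 to 174 CPM. Mcm6 was at 8.83 to 12.9 CPM in saline and at 24.6, 11.1, 22.8, 19.3 and 11.9 CPM in LPS. LPS mice 2 and 5 lay in the saline range, and the log2 fold change of 0.69 ± 0.26 (edgeR adjusted p = 0.0269) was lost without saline mouse 1, 3 or 5 or LPS mouse 1 or 3 (adjusted p between 0.0554 and 0.0739) and with library size only. Mcm3 and Mcm4 were not called. Mcm3 was at 69.1 to 112 CPM in saline and at 102, 57.1, 101, 41.8 and 32.0 CPM in LPS (log2 fold change -0.41 ± 0.35, edgeR adjusted p = 0.242). Here too mice 1 and 3 were the highest of the LPS group, but within the saline range, and the other LPS mice were below it. Mcm4 was at 17.6 to 27.9 CPM in saline and 13.5 to 35.9 CPM in LPS (log2 fold change 0.04 ± 0.29, edgeR adjusted p = 0.907).

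Gins2 (Entrez gene 272551, chromosome 8, 120581266 to 120589075), a subunit of the GINS complex that completes the active helicase, was at 5.20, 2.97, 6.63, 2.37 and 5.06 CPM in saline. In LPS it was at 19.2, 8.07, 15.5, 6.97 and 16.2 CPM, and the lowest LPS mouse was just above the highest saline mouse. Its log2 fold change was 1.57 ± 0.39 (edgeR adjusted p = 0.00189), and 0.98 after removal of the length trend, where it was still called (adjusted p = 0.00912). Gse1, which overlaps it on the opposite strand, went from 15.2 to 13.8 CPM, the other way. Pcna (Entrez gene 18538, chromosome 2, 132249286 to 132253180), the clamp that holds DNA polymerases on the template and also serves DNA repair, was at 22.9, 14.7, 15.8, 16.4 and 15.5 CPM in saline and at 33.97, 23.7, 30.1, 25.1 and 28.7 CPM in LPS. Groups did not overlap, although saline mouse 1 was close to LPS mouse 2 (log2 fold change 0.73 ± 0.15, edgeR adjusted p = 0.0028). Its copy Pcna-ps2, which can share reads with it, was called higher as well (10.4 ± 1.53 to 19.7 ± 3.19 CPM, with a log2 fold change of 0.93 ± 0.14, edgeR adjusted p = 0.000709). After removal of the length trend the Pcna difference was 0.23 and not called (adjusted p = 0.272).

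The nucleotide enzymes were not called. Rrm1 and Rrm2 encode the subunits of ribonucleotide reductase, which makes deoxynucleotides, and the supply of the Rrm2 subunit is the part that follows S phase. Rrm1 was abundant, with 31.4 to 70.2 CPM in saline and 37.1 to 53.05 CPM in LPS (log2 fold change -0.15 ± 0.21, edgeR adjusted p = 0.549). Rrm2 was at 0.922, 1.1, 0.242, 1.061 and 1.495 CPM in saline and at 8.03, 2.15, 1.40, 0.444 and 0.939 CPM in LPS. LPS mouse 1 carried most of the Rrm2 difference: the log2 fold change was 1.40 ± 0.73 with all mice (edgeR adjusted p = 0.103) and 0.35 without that mouse (adjusted p = 0.631), while without LPS mouse 4 it was 1.69 and called (adjusted p = 0.0316). Tyms, thymidylate synthase, was at 35.0, 50.4, 37.6, 36.0 and 35.5 CPM in saline and at 27.4, 34.03, 32.6, 22.5 and 32.1 CPM in LPS. Every LPS mouse was below every saline mouse, yet the log2 fold change of -0.39 ± 0.15 missed the threshold (edgeR adjusted p = 0.0557), and it was called without LPS mouse 2 (adjusted p = 0.0497) and with library size only (0.023).

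**Figure D3:**
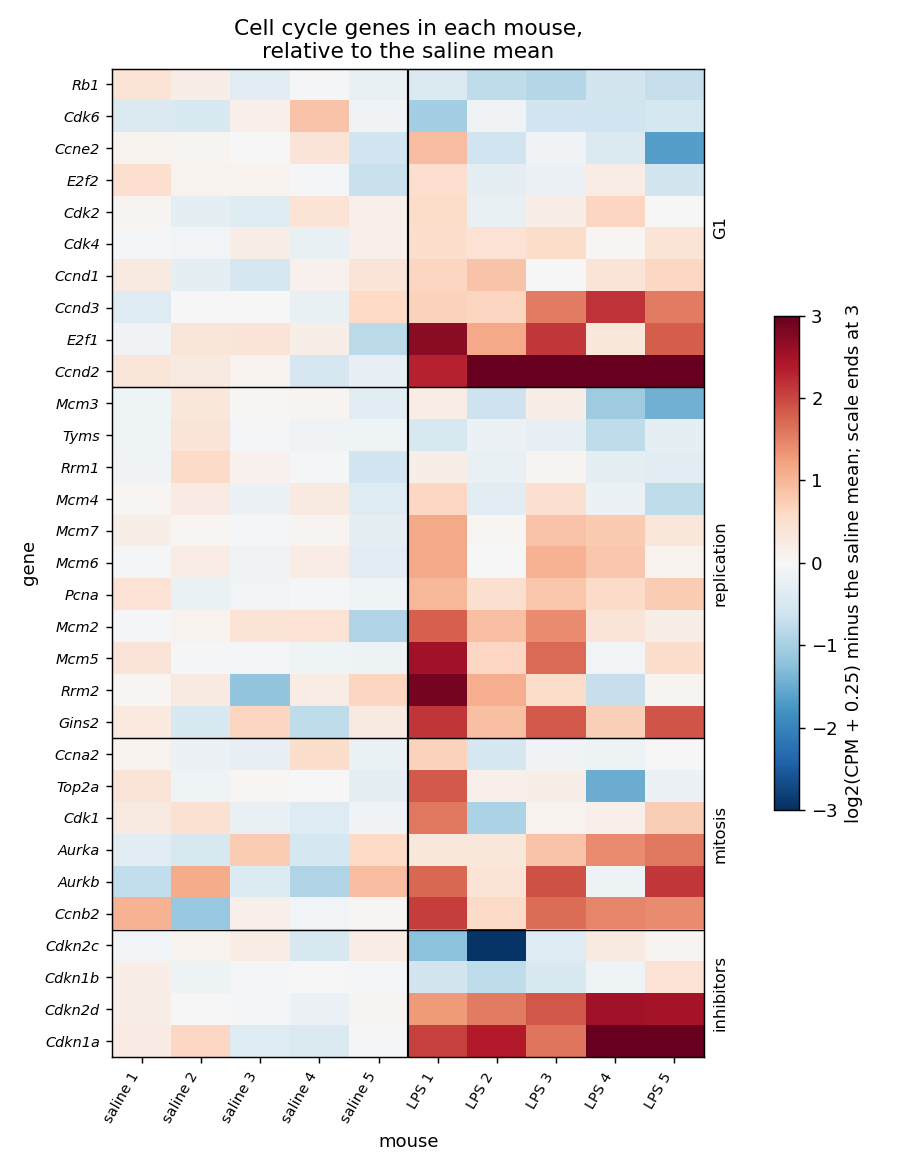
Each cell is the log2(CPM + 0.25) of 1 of the 31 tested genes (rows, grouped by role) in 1 mouse (columns) minus the mean of the saline mice, with the colour scale ending at 3. Among the LPS mice, mouse 1 has the highest value in 10 of the 11 replication rows and 4 of the 6 mitosis rows. Mouse 4 has it in the Cdkn1a and Cdkn2d rows, followed by mouse 5.

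Many mitosis genes were low. Only 6 of the 12 could be tested, and the other 6 stood near 0. Among the 6 tested, edgeR called 1 higher and 0 lower, against 22.4% and 22.5% of all genes tested. With DESeq2 3 were called higher, against 3492 of all 13793 genes tested, and 0 were lower at an unadjusted edgeR p below 0.05. Ccnb2 (Entrez gene 12442, chromosome 9, 70407689 to 70421554), a B-type cyclin of CDK1, had 19, 1, 7, 7 and 7 raw counts in saline mice 1 to 5 and 34, 11, 27, 28 and 22 in LPS mice 1 to 5. In CPM these were 1.25, 0.0849, 0.566, 0.437 and 0.498 against 2.84, 0.845, 2.10, 1.77 and 1.72. Saline mouse 1 was above LPS mouse 2, and the other saline mice were below every LPS mouse. The log2 fold change was 1.67 ± 0.49 (edgeR adjusted p = 0.0205), and 1.28 after removal of the length trend, where it was not called (adjusted p = 0.0601).

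Cdk1, the kinase of mitotic entry, was at 6.06, 6.87, 4.20, 3.74 and 4.63 CPM in saline and at 15.5, 2.46, 5.36, 5.58 and 8.53 CPM in LPS. LPS mouse 1 was the highest and LPS mouse 2 the lowest of all 10 (log2 fold change 0.55 ± 0.45, edgeR adjusted p = 0.255). Top2a, the topoisomerase that untangles chromosomes, was at 2.31, 1.53, 1.78, 1.68 and 1.35 CPM in saline and at 6.78, 1.92, 1.94, 0.444 and 1.49 CPM in LPS. Its difference turned with 1 mouse: 0.52 ± 0.58 with all (edgeR adjusted p = 0.44) and -0.25 without LPS mouse 1 (adjusted p = 0.669). Ccna2, cyclin A, was at 0.889 to 1.68 CPM and 0.691 to 1.92 CPM, with a log2 fold change of 0.00 ± 0.26 (edgeR adjusted p = 0.998). Exosc9, which overlaps Ccna2 on the opposite strand, went from 52.9 to 68.3 CPM, so the strand caveat bears on Ccna2 too.

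The Aurora kinases, which build the spindle (Aurka) and correct its attachments (Aurkb), were higher on average but not called. Aurka was at 1.25, 1.1, 2.99, 1.061 and 2.63 CPM in saline and at 2.18, 2.15, 3.18, 4.82 and 5.48 CPM in LPS (log2 fold change 0.98 ± 0.40, edgeR adjusted p = 0.0636). It was called without saline mouse 3 or 5 and without LPS mouse 1 or 2 (adjusted p between 0.0385 and 0.0496), and also with DESeq2 (0.0394), with the range of mouse numbers as a term (0.0352) and in the 3 fits of RPKM by limma (0.0431 to 0.049). Aurkb was at 0.593, 2.80, 0.808, 0.499 and 2.42 CPM in saline and at 4.35, 1.61, 5.05, 1.01 and 5.87 CPM in LPS (log2 fold change 1.33 ± 0.66, edgeR adjusted p = 0.0724), and was called without saline mouse 2 or LPS mouse 4 (adjusted p = 0.0422 and 0.0232) and with DESeq2 (0.0392). In both genes the high saline mice reached into the LPS range.

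The 6 mitosis genes near 0 include the standard proliferation marker. Mki67, which encodes the Ki-67 antigen, had 7 to 20 raw counts per saline mouse (65 in all) and 1 to 13 per LPS mouse (28 in all). That is 0.914 ± 0.341 CPM in saline and 0.444 ± 0.417 CPM in LPS, a lower mean in LPS, and with no filter the log2 fold change was -1.08 (edgeR adjusted p = 0.268). Birc5, the survivin gene, had 30 counts in all in saline and 61 in LPS, of which the highest mouse gave 27. Plk1, a kinase of mitotic entry, had 39 and 53, with 33 in 1 LPS mouse. Ccnb1, the main B-type cyclin, had 15 and 27 counts, the checkpoint kinase gene Bub1 24 and 25, and Cdc20, which activates the complex that ends mitosis, 17 and 19. With no filter none of these 5 was called (edgeR adjusted p between 0.252 and 0.918). Elovl1, which overlaps Cdc20 on the opposite strand, went from 332 to 780 CPM, so the strand caveat bears on Cdc20 too. Differences at this depth would have to be large to be detected, and the counts do not show that the genes are equal in the groups.

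Promoters of mitosis genes are known for the CHR element, bound by the DREAM complex, which silences them in resting cells. The letters TTTGAA or TTCGAA, on either strand, stood in the window of 8 of the 10 mitosis genes with one (80%), of 2 of 9 replication genes and of 0 of 5 inhibitor genes, against 21.7% of 27025 genes. The CCAAT box stood in 9 of the 10 mitosis genes (90%), 8 of 9 replication genes (88.9%), 4 of 5 inhibitors (80%) and 3 of 7 G1 genes (42.9%), against 41.1% of all genes. The stretches before the start sites of Ccnb2, the called gene, and of Mki67 and Cdc20, near 0 in both groups, are given from chr9:70421696-70421741, chr7:135716452-135716515 and chr4:118437344-118437381, all on the minus strand, 5′ to 3′ along the gene, with the CHR letters in capitals:
Ccnb2: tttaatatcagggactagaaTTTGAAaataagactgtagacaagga
Mki67: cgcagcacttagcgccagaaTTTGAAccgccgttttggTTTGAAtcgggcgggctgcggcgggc
Cdc20: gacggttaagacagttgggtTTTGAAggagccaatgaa
A second match in Ccnb2 begins at base 5 after the start site, outside the stretch shown. The called gene and the genes near 0 thus share these letters, and nothing was measured on what binds them.

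The mice with the highest sums differed between the roles. Summed over the 11 replication genes, saline mice 1 to 5 had 268, 331, 269.8, 274 and 216 CPM, and LPS mice 1 to 5 had 444, 244.9, 379, 228 and 223 CPM. LPS mice 1 and 3 were above all saline mice and the other 3 were within the saline range. Summed over the 12 mitosis genes, LPS mouse 1 was also the highest, with 41.7 CPM against 12.2 to 16.0 CPM in saline, followed by LPS mice 5 (26.6) and 3 (20.2). For the 5 inhibitors the order was another: 87.3, 96.7 and 107 CPM in LPS mice 1, 2 and 3, and 234 and 193 CPM in LPS mice 4 and 5, against 53.6 to 66.5 CPM in saline. The G1 sum, which Cdk4 and Cdk6 dominate, was 295 ± 47.7 CPM in saline and 296 ± 11.7 CPM in LPS.

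**Figure D4:**
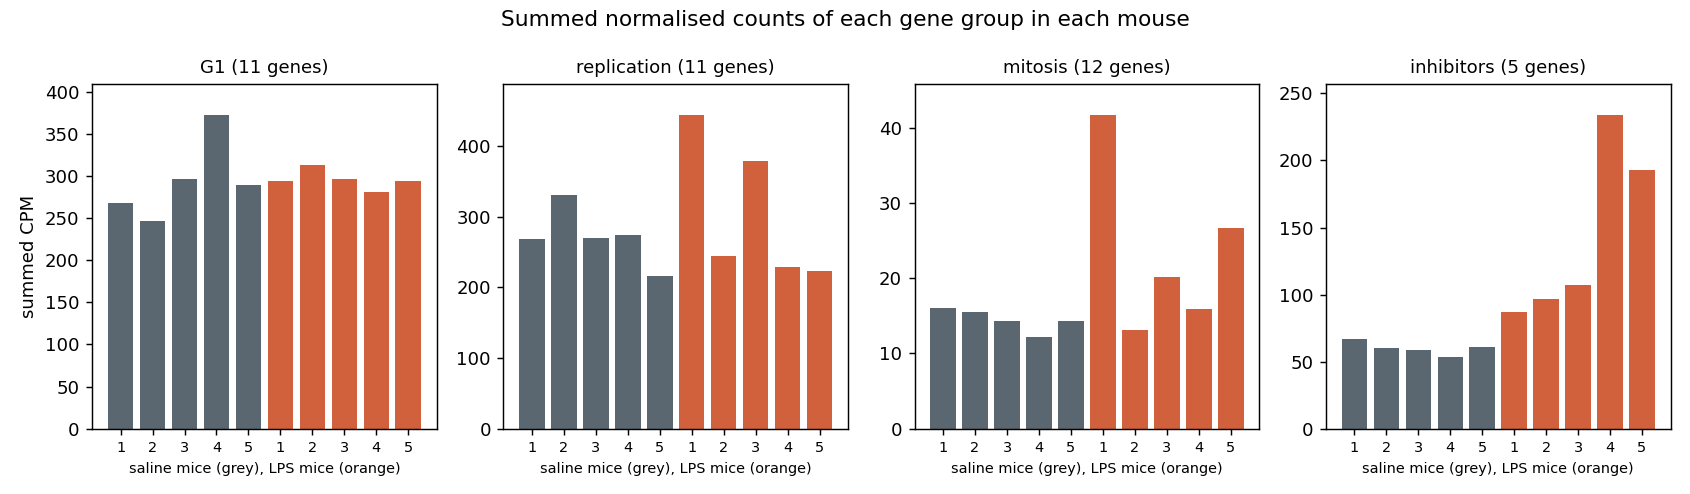
Summed CPM (y axis, from 0) of the 4 groups of cell cycle genes in each of the 5 saline mice (grey bars) and 5 LPS mice (orange bars). LPS mouse 1 has the tallest bar for replication (444) and mitosis (41.7), and LPS mouse 4 for inhibitors (234).

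Counted gene by gene, LPS mouse 1 was the highest LPS mouse in 18 of the 31 tested genes, in 10 of the 11 replication genes, in 4 of the 6 tested mitosis genes and in 0 of the 4 tested inhibitors. LPS mouse 4 was the highest in 3 of the 4 inhibitors. Some other measures of these mice moved alongside. LPS mouse 1 had the highest sum of microglial markers in its group (40403 CPM) and the lowest of neutrophil (2.01 CPM) and border-associated macrophage markers (814 CPM). LPS mouse 4 had the lowest microglial sum (18588 CPM) and the highest neutrophil (28.5 CPM) and border-associated macrophage sums (2089.7 CPM). Of the latter, Stab1 gave 1842 CPM. Dab2 (213 CPM) and Siglec1 (17.3 CPM) were also higher in LPS mouse 4 than in any other LPS mouse. Going the other way, Mrc1 (4.37 CPM), Cbr2 (2.28 CPM) and Pf4 (0.0634 CPM) were lower in LPS mouse 4 than in any other LPS mouse. Monocyte markers did not follow this contrast. They summed to 144 CPM in LPS mouse 1 and 127 CPM in LPS mouse 4, and LPS mouse 3 was the highest (219.9 CPM). The part of these cells in the result was not tested. Without LPS mouse 1, 11 genes were called higher and 1 lower, against 2957 and 2949 of the 14077 genes tested in that fit. Cdk4, Cdk6, Mcm2 and Mcm6 lost their call and Aurka gained one.

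Levels of different genes were compared per length in the deposited RPKM values, which hold 31 of the 39 genes. In saline the order began with Cdk4 (61.5 ± 8.51 RPKM), Mcm3 (30.4 ± 5.49), Pcna (13.4 ± 2.52), Rrm1 (11.99 ± 3.59), Cdkn2d (11.9 ± 1.27) and Cdkn1b (11.3 ± 0.966). Cdk4 and Mcm3 stood clear of the next genes, and Pcna to Cdkn1b lay within their spread of each other. In LPS, Cdkn2d moved from rank 5 to rank 2 (49.6 ± 18.3 RPKM) and Cdkn1a from rank 18 (2.61 ± 0.895) to rank 5 (20.8 ± 16.0), below Cdk4, which stayed first (83.0 ± 11.3). Mcm3 (23.4 ± 11.6), Cdkn1a and Pcna (22.7 ± 3.37) lay within their spread of each other. The 6 mitosis genes in the table had ranks between 19 and 28 in saline and between 20 and 30 in LPS. Cdk1 was the highest of them with 1.77 ± 0.469 RPKM in saline and 2.65 ± 1.77 in LPS, and Ccnb2 had 0.364 ± 0.271 and 1.22 ± 0.476.

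**Figure D5:**
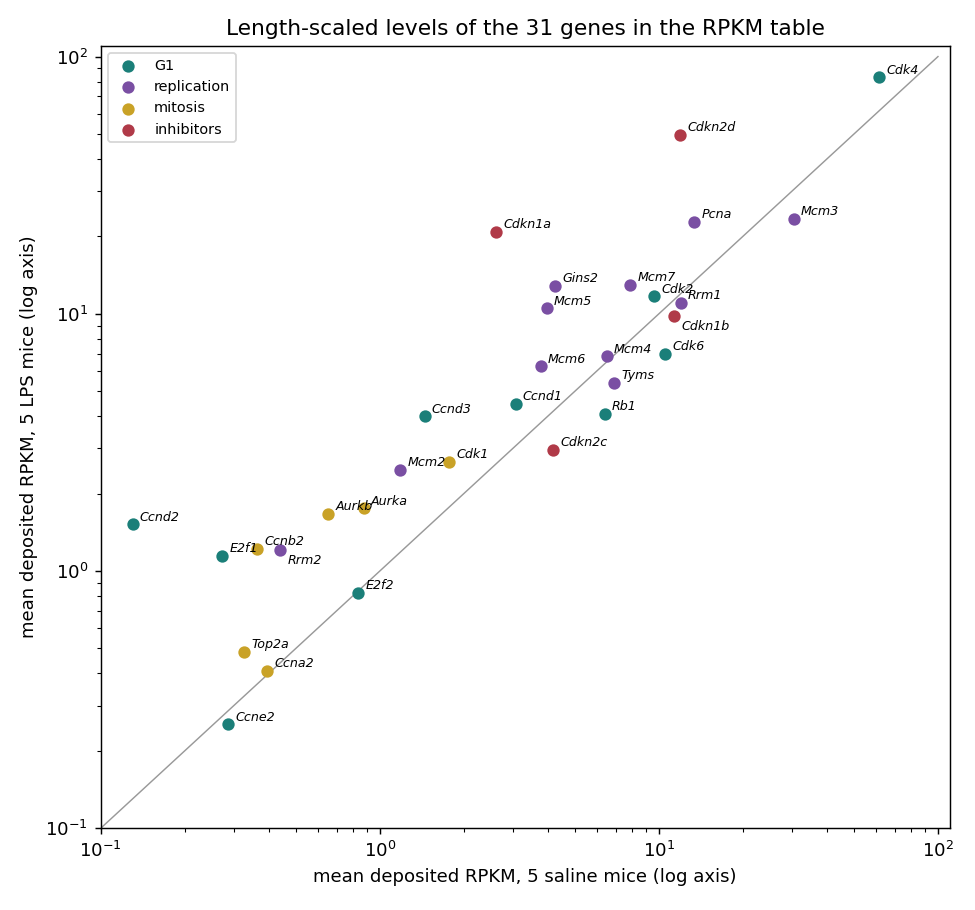
Mean deposited RPKM of the 31 cell cycle genes in the table in 5 saline mice (x axis, log scale) and 5 LPS mice (y axis, log scale), coloured by role, with the line of equal levels. Cdk4 is at the top in both groups, Cdkn2d, Cdkn1a and Ccnd2 lie far above the line, and the mitosis genes lie in the lower left together with E2f1, E2f2 and Ccne2.

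Genes of the same pathways outside the 39 were counted in 4 lists. The counts are to be read beside the shares of all genes tested, 22.4% called higher and 22.5% lower. Among 42 other replication genes, 39 were tested, and 15 were called higher and 1 lower, with a median log2 fold change of 0.62. The largest rise was in Chaf1b, a chromatin assembly factor that follows the replication fork (1.17 ± 0.329 to 4.73 ± 1.89 CPM, with a log2 fold change of 2.01 ± 0.32, edgeR adjusted p = 0.000551), and the one fall was in Orc3, of the origin recognition complex (95.01 ± 3.40 to 67.9 ± 10.8 CPM, with a log2 fold change of -0.49 ± 0.11, edgeR adjusted p = 0.00914). The most abundant, the clamp loader subunit Rfc2, rose from 88.8 ± 10.5 to 144.7 ± 30.5 CPM (edgeR adjusted p = 0.00263). After removal of the length trend, Orc3 (-0.08, adjusted p = 0.667) and Rfc2 (0.28, adjusted p = 0.0794) were not called.

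Among 26 other G1, RB and E2F genes, 23 were tested, and 3 were called higher and 6 lower, with a median of -0.12. Cks1b, a CDK-binding subunit needed to degrade p27, rose to 13.5 ± 3.96 CPM in LPS from 2.49 ± 0.548 CPM in saline (log2 fold change 2.44 ± 0.23, edgeR adjusted p = 6.06e-06, and 1.66 after removal of the length trend). Ccng2, a cyclin linked to cell cycle exit, fell to 36.5 ± 10.3 CPM in LPS from 122 ± 10.9 CPM in saline (log2 fold change -1.74 ± 0.20, edgeR adjusted p = 6.21e-06). In both genes the groups did not overlap. Myc, a growth-promoting transcription factor, rose from 87.1 ± 51.8 to 232 ± 83.5 CPM with overlapping groups (log2 fold change 1.41 ± 0.47, edgeR adjusted p = 0.00623).

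Of 34 other genes of G2 and mitosis 22 were tested, with 6 called higher and 1 lower and a median of 0.17. Cdca8, a partner of Aurora B, rose most (1.23 ± 0.526 to 4.45 ± 2.06 CPM, with a log2 fold change of 1.85 ± 0.41, edgeR adjusted p = 0.00265). Bub3, a checkpoint protein that was far more abundant, went from 171 ± 16.8 to 237 ± 20.5 CPM (edgeR adjusted p = 0.0077), and lost its call after removal of the length trend (adjusted p = 0.0557). Espl1, separase, fell from 26.8 ± 7.36 to 18.2 ± 3.70 CPM at the edge of the threshold (edgeR adjusted p = 0.0492), and the call was lost without any 1 of 8 of the 10 mice. It was also lost with DESeq2, limma-voom, RPKM, RLE or upper quartile factors, protein-coding genes only and the range of mouse numbers as a term. The same held with a filter of at least 1 CPM in 5 libraries and after removal of the length trend (log2 fold change -0.06, edgeR adjusted p = 0.853).

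Since p21 is a p53 target, 23 p53 and checkpoint genes were counted as well: 21 were tested, 4 were called higher and 1 lower, and the median was 0.28. Trp53 itself was not called (236 ± 23.0 and 285 ± 58.6 CPM, log2 fold change 0.28 ± 0.15, edgeR adjusted p = 0.158), but it was without LPS mouse 4 (adjusted p = 0.0334). Mdm2, the p53 inhibitor and target, was not called and had the lower mean in LPS (54.9 ± 6.86 and 42.7 ± 8.18 CPM, log2 fold change -0.36 ± 0.14, edgeR adjusted p = 0.0611), and was called lower without LPS mouse 4 (adjusted p = 0.0139), with upper quartile factors (0.0472) and with library size only (0.0452). Gadd45g, a growth arrest gene, rose from 8.64 ± 4.24 to 23.1 ± 11.3 CPM (edgeR adjusted p = 0.00847), and was not called after removal of the length trend (0.90, adjusted p = 0.0623). Sesn1, a sestrin induced by p53 in stressed cells, fell to 85.9 ± 23.1 CPM from 174 ± 28.0 CPM in saline (log2 fold change -1.01 ± 0.22, edgeR adjusted p = 0.000787). Btg2, an antiproliferative gene and the most abundant of the list, was not called (1346 ± 747 and 697.1 ± 359 CPM, edgeR adjusted p = 0.0568), but was called lower without saline mouse 5 or LPS mouse 1 (adjusted p = 0.0145 and 0.0158), with the range of mouse numbers as a term (0.0062), with library size only (0.037) and with no filter (0.0115). The 4 lists together held 125 genes, of which 105 were tested, 28 called higher and 9 lower, against 22.4% and 22.5% of all genes tested.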

How the data were processed

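Microglia RNA of 10 mice was amplified with a SMARTer kit, per the labels' protocols, with no molecular identifiers named. The authors deposited raw counts per gene (made with featureCounts on GRCm38 or mm10, per the submitters' processing notes) and RPKM values called CRAC normalised. The aligner, annotation, strand setting and sense of CRAC were not given in the sources used here. A line with no gene was left out. Differences were tested on the counts in R 4.3.3 with edgeR 4.0.16 (quasi-likelihood test, TMM, filterByExpr, Benjamini-Hochberg at 0.05 over 13793 genes), also tested on simulated data. Standard errors used log2 CPM with a prior count of 2. limma 3.58.1, DESeq2 1.42.0, other scalings, filters, RPKM on a log2(RPKM + 1) scale, a gene-length correction and left-out mice were alternatives; adding pseudogene counts to their parents was chosen after seeing the data. Libraries of a group differed by more than sampling noise (chi-square per degree of freedom at least 13).

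The genes, gene lists and motifs were chosen with earlier results of these data known. All 39 genes could be named; of other lists, the called genes with the largest rise and fall and the most abundant gene, with Trp53 and Mdm2. Sequences are from RefSeq: 31 of the 39 genes had a promoter window. Replicates are separate mice.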

Additional observations from a re-analysis of the deposited data

Results flagged for a closer look

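Among 74 groups of 5 mice examined (the 31 tested genes and 6 sums over gene groups, in saline and in LPS), 5 held a mouse far from its group by Dixon's criterion, where chance gives about 1 in 20, or 3.7 groups. LPS mouse 1 was the high one for Rrm2 (8.03 CPM, the next mouse at 2.15) and Top2a (6.78 CPM, the next at 1.94). Saline mouse 1 was the high one for Mcm5 (17.9 CPM, the next at 13.4) and Pcna (22.9 CPM, the next at 16.4), and saline mouse 2 for Tyms (50.4 CPM, the next at 37.6).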

How the results depend on the processing

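Under 24 alternatives, 10 to 16 of the 39 genes were called higher, against 13, and 25 to 36 of the 125 other cell cycle genes, against 28. Fewer than these 39 and 125 were tested in most fits, depending on the filter. The count over all 13793 genes moved too, with 3492 called higher with DESeq2, which gave the 16, and 2656 by library size only, against 3093. Of the 15 called genes, 7 (Ccnd2, Ccnd3, E2f1, Mcm7, Gins2, Cdkn1a, Cdkn2d) were called in the same direction under every alternative that tested them (22 for Ccnd2 and E2f1, whose mean RPKM was under the filter of 1), and 8 lost their call under at least 1. The count of genes called lower was 2, and 3 by library size only (78.6% of calls higher, against 86.7%), 1 with RLE factors, limma-voom, the range of mouse numbers as a term, or RPKM (both pseudocounts, and no filter); it was 0 with the gene-length trend removed, where the Cdk4 difference was -0.0474 and the Cdk6 difference 0.0035. Leaving out 1 mouse at a time gave 1 to 3 lower and 10 to 15 higher, against 2657 to 3559 lower and 2661 to 3607 higher over all genes tested. Of the other genes, 9 were called lower, 14 by library size only (65% of their calls higher, against 75.7%) and 5 with the gene-length trend removed (85.3% higher). For the other alternatives of these counts the cause of a difference was not tested. Mice numbered below 650 in the titles (2 and 2) and above (3 and 3) gave the same direction for all 15 called genes, with LPS to saline ratios of 0.968 and 0.525 for Cdk6. Because the 15 genes were called from these same mice, this agreement is no independent check. Depth limited the 8 genes near 0. No paired analysis was possible because the labels number the mice without linking those of one group to those of the other.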
